A study of Mus musculus with 20 samples.

Results

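F4/80+ cells isolated from a medium-sized colorectal liver metastasis (Mt2) at 11 dpi (days post injection) were compared, gene by gene, with tissue of the same Mt2 stage and day. The comparison used 5 of the 20 RNA-seq libraries of the study, 3 of F4/80+ cells and 2 of Mt2 tissue, which were chosen by their sample labels and joined by gene identifier. In the study, 1000000 cells of the Mc38 line, which derives from a mouse colon adenocarcinoma, were injected into wild-type C57BL/6 mice and reached the liver through the spleen and portal vein, and metastases of increasing size were sampled as tissue, with macrophages sorted from the Mt2 stage. All 5 libraries therefore share the genotype (WT), the injected line and the day. The labels give the tissue donors as male and the Methods give young adult female mice, while the labels of the sorted cells give no sex. The F4/80+ cells were those retained on a magnetic column by F4/80 microbeads, so they are an enriched population and not a single cell type. The Mt2 tissue is whole metastasis with adjoining liver. The Methods give 2 livers per tissue group but do not say whether the 3 sorted libraries came from separate animals, so p-values measure the spread between libraries of a group, pooled over the groups in the fit, which may be technical.

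The counts of the tissue and those of the isolated cells came in different tables, each with 1 kind of sample. A batch difference therefore cannot be told apart from a difference between cells and tissue, and no comparison of cells with tissue here has values within a batch. The tables differed in sex-linked genes, and the 4184 genes of chromosomes X and Y were left out. The F4/80+ libraries held 17785496 to 18286092 counts and the Mt2 libraries 17105175 and 17834019, so that 3 counts, the floor used here, came to 0.151 to 0.155 CPM (counts relative to the library total, scaled by TMM) in the F4/80+ libraries and to 0.20 and 0.13 CPM in Mt2. The F4/80+ libraries were the more alike, with a Pearson r of 0.983 to 0.987 between pairs on log2 CPM across genes, against 0.958 between the Mt2 libraries, and genes are not independent replicates. The Mt2 pair differed most in liver transcripts, and Alb, which encodes albumin, stood at 59074 and 12569 CPM in them.

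Macrophages take up particles and dying cells, digest them in lysosomes, present peptides on MHC class II molecules and signal through cytokines and chemokines. The liver has its own resident macrophages, the Kupffer cells, which line the sinusoids and carry Clec4f and Timd4, whereas tumors also draw blood monocytes marked by Ly6c2 and Ccr2, which mature into tumor-associated macrophages (TAMs). F4/80, the product of Adgre1, is an adhesion-type receptor carried by mouse macrophages of both origins.

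The F4/80+ cells carried the macrophage program at several times the level of the tissue. Adgre1 (ENSMUSG00000004730, chromosome 17 from 57358691 to 57483527, GRCm38) stood at 800.5, 741 and 708 CPM in the 3 F4/80+ libraries and at 104 and 127 CPM in the 2 Mt2 libraries. All CPM values here are scaled by TMM, and a level given per kilobase is FPKM. The difference of Adgre1 was log2 fold change 2.70 ± 0.27, adjusted p = 1.56e-06, where ± is the standard error and adjusted p, here and throughout, is that of the quasi-likelihood F test in edgeR after the Benjamini-Hochberg procedure across the 17890 genes tested. Genes were called higher or lower where this adjusted p did not exceed 0.05 and the log2 fold change reached 1 in size. Over all genes tested, 42.2% were called, 17.1% higher and 25.1% lower in the F4/80+ cells, with a median log2 fold change of -0.12. Against this background, all 20 members of the macrophage list were called higher, with a median log2 fold change of 3.12 and log2 fold changes from 2.41 to 4.79. Their summed level was 32918 to 34725 CPM in the F4/80+ cells and 3120 and 4432 CPM in Mt2. The beads selected cells by the product of Adgre1, so the isolation set the direction of that gene. In the CD11b+ cells, also isolated from medium-content tumor at day 11, the summed level of the list was 30457 to 48397 CPM. The list therefore does not set the F4/80+ cells apart from those cells.

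Within the macrophage list, Cd14, the co-receptor for lipopolysaccharide, had the greatest difference, with 1036, 431 and 527 CPM in the F4/80+ cells and 19.4 and 28.6 CPM in Mt2 (log2 fold change 4.79 ± 0.46, adjusted p = 1.03e-06). Replicate 1 of the F4/80+ cells lay well above the other two for this gene. Cd68, a glycoprotein of the macrophage lysosome, stood at 670.5, 565 and 667 CPM against 41.0 and 66.2 CPM (log2 fold change 3.56 ± 0.29, adjusted p = 2.92e-07). Csf1r, the receptor for the macrophage growth factor CSF1, stood at 2726, 2868 and 2478 CPM against 241 and 235 CPM (log2 fold change 3.50 ± 0.30, adjusted p = 4.51e-07). Both genes were nearly level among the F4/80+ libraries. The smallest difference of the list belonged to Mrc1, the mannose receptor, at 906, 586 and 575 CPM against 123 and 135 CPM (log2 fold change 2.41 ± 0.33, adjusted p = 2.80e-05). Itgam, which encodes the integrin CD11b, was also called higher, at 249, 259.5 and 302 CPM against 11.9 and 37.0 CPM (log2 fold change 3.46 ± 0.46, adjusted p = 2.03e-05). The most abundant member per kilobase was Lyz2, the lysozyme of myeloid cells, at 5041 ± 511 FPKM (SD, n = 3).

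The promoters of the macrophage list were read because its members moved together. PU.1, the factor encoded by Spi1, binds a purine-rich core for which the letters GAGGAA were searched on both strands in the 250 bases before each RefSeq start site (GRCm38.p6), and 14 of the 20 genes had an entry. Counted per gene, with any promoter of the gene, the letters were present in 8 of these 14 genes (57.14%) and 1 of 16 genes of the hepatocyte list. Counted per promoter, they were present in 7639 of all 32851 (23.25%). The shares of genes and of promoters are not like measures, since a gene can have several promoters. Cd68 (chr11:69666171-69666420, minus strand) holds 1 match that begins 225 bases before its start, and C1qb (chr4:136886201-136886450, minus strand) holds 1 match that begins 30 bases before its start. These stretches are printed because both genes were higher in every F4/80+ library, with the matching letters in capitals.
Cd68: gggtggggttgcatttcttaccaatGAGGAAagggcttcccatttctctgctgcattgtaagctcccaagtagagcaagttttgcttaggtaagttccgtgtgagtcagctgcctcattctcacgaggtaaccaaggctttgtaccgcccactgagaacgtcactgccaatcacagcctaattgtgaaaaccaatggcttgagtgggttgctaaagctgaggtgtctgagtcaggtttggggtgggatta
C1qb: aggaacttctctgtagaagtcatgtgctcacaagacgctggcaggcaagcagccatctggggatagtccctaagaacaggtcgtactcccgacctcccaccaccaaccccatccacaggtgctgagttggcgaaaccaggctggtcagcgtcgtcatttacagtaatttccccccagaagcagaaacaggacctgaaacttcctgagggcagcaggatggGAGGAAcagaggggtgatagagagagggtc
A match of so short a run is a description of these letters and no evidence of binding. Spi1 itself stood at 586, 558 and 596 CPM in the F4/80+ cells and 43.0 and 58.1 CPM in Mt2 (log2 fold change 3.52 ± 0.34, adjusted p = 1.08e-06).

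Across the genome, 3058 genes were called higher and 4489 lower in the F4/80+ cells, and 10343 were not called. Of 14299 protein-coding genes tested, 2339 were higher and 3900 lower. Zero counts shape the low end, since 549 of the lower genes had no count in any F4/80+ library and 148 of the higher genes had none in either Mt2 library. For those genes a fitted fold change is no bound, and a fold against the floor of 3 counts in each library is given in its place.

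**Figure D1:**
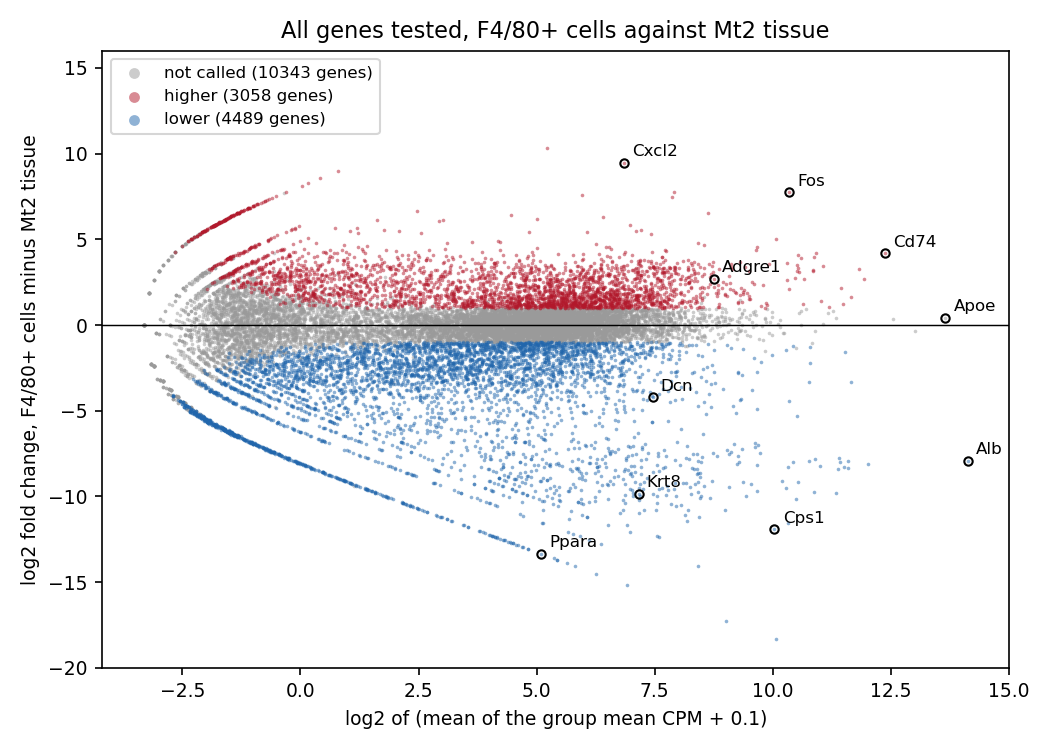
Log2 fold change of F4/80+ cells against Mt2 tissue (vertical axis) by mean level (horizontal axis, log2 of the mean of the group mean CPM plus 0.1) for all 17890 genes tested, colored by call. The macrophage genes Adgre1 and Cd74 lie above zero and Alb, Cps1, Krt8 and Ppara below, and the curved lines at the low end are genes with no or few counts in one group.

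The protein-coding genes with the largest positive differences were mostly of inflammation and of the immediate response to stimuli. Among genes with at least 20 CPM in the higher group and no overlap, the 12 largest were Cxcl2, Fosb, Fos, Osm, Hspa1a, Rgs1, Ltf, Ccl3, Ngp, Ccrl2, Atf3 and Il1b, with log2 fold changes from 5.47 to 9.48. Cxcl2, a chemokine that draws neutrophils, stood at 412, 98.4 and 179.8 CPM against 0.333 and 0.304 CPM. The Mt2 values correspond to 5 and 7 counts, so its log2 fold change of 9.48 ± 1.38 (adjusted p = 4.68e-05) rests on few reads in the tissue. Rgs1, a brake on chemokine receptor signaling, stood at 1025, 567 and 773 CPM against 6.86 and 10.1 CPM (log2 fold change 6.54 ± 0.44, adjusted p = 1.17e-07). Ccrl2, a chemokine-like receptor that holds chemerin at the surface, stood at 396, 163 and 184 CPM against 4.0 and 4.55 CPM (log2 fold change 5.85 ± 0.51, adjusted p = 4.93e-07). At the other end, the 12 largest negative differences were mostly those of liver genes. No donor sex is given for the F4/80+ cells, and leaving out chromosomes X and Y does not remove sex-biased genes of other chromosomes. The part of donor sex in these folds was not tested. Elovl3, a fatty acid elongase, was listed at 0 counts in all F4/80+ libraries against 435 and 50.5 CPM and was at least 1594-fold lower, or 332-fold without Mt2 replicate 1. Hsd3b5, a steroid dehydrogenase known from male mouse liver, was at 0 against 164 and 8.50 CPM and at least 566-fold lower, or 55.8-fold without that library. Mup7, a major urinary protein, was at 0 against 3743 and 556 CPM and at least 14115-fold lower, or 3648-fold without it, but the Mup genes are near-identical copies whose reads could be split among them. Gm21320 stood apart because nearly all its reads were in Mt2 replicate 2, and without that library the call was lost (log2 fold change -7.84, adjusted p = 0.3).

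Levels per kilobase were compared between genes within the F4/80+ cells. Cd74, the invariant chain of MHC class II, had the highest mean level, 7121 ± 2766 FPKM (SD, n = 3), followed by Apoe, which encodes apolipoprotein E, at 6945 ± 213 FPKM and Lyz2. The order of Cd74 and Apoe rests on F4/80+ replicate 2, since Apoe was the higher per kilobase in replicates 1 and 3. The ferritin heavy chain gene Fth1 reached 4636 ± 201 FPKM, C1qb 3585 ± 72.9 FPKM, B2m 3349.7 ± 101 FPKM and C1qa 3208 ± 173 FPKM. The rest of the 15 highest were mt-Co1, H2-Eb1, Gm23935 (not called with all libraries, called lower without Mt2 replicate 2 with log2 fold change -1.96, adjusted p = 0.0304), Eef1a1, Psap, Ctss, H2-Ab1 and Rplp1. Abundance and difference from the tissue did not go together for all of them. Apoe stood at 14950.5, 15244 and 14351 CPM in the F4/80+ cells and 16292 and 5761 CPM in Mt2, its groups overlapped, and it was not called (log2 fold change 0.43 ± 0.49, adjusted p = 0.476). Of the counts of the genes tested, these 15 genes together took 8.03% to 9.97% in an F4/80+ library and 3.29% and 3.91% in the Mt2 libraries.

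**Figure D2:**
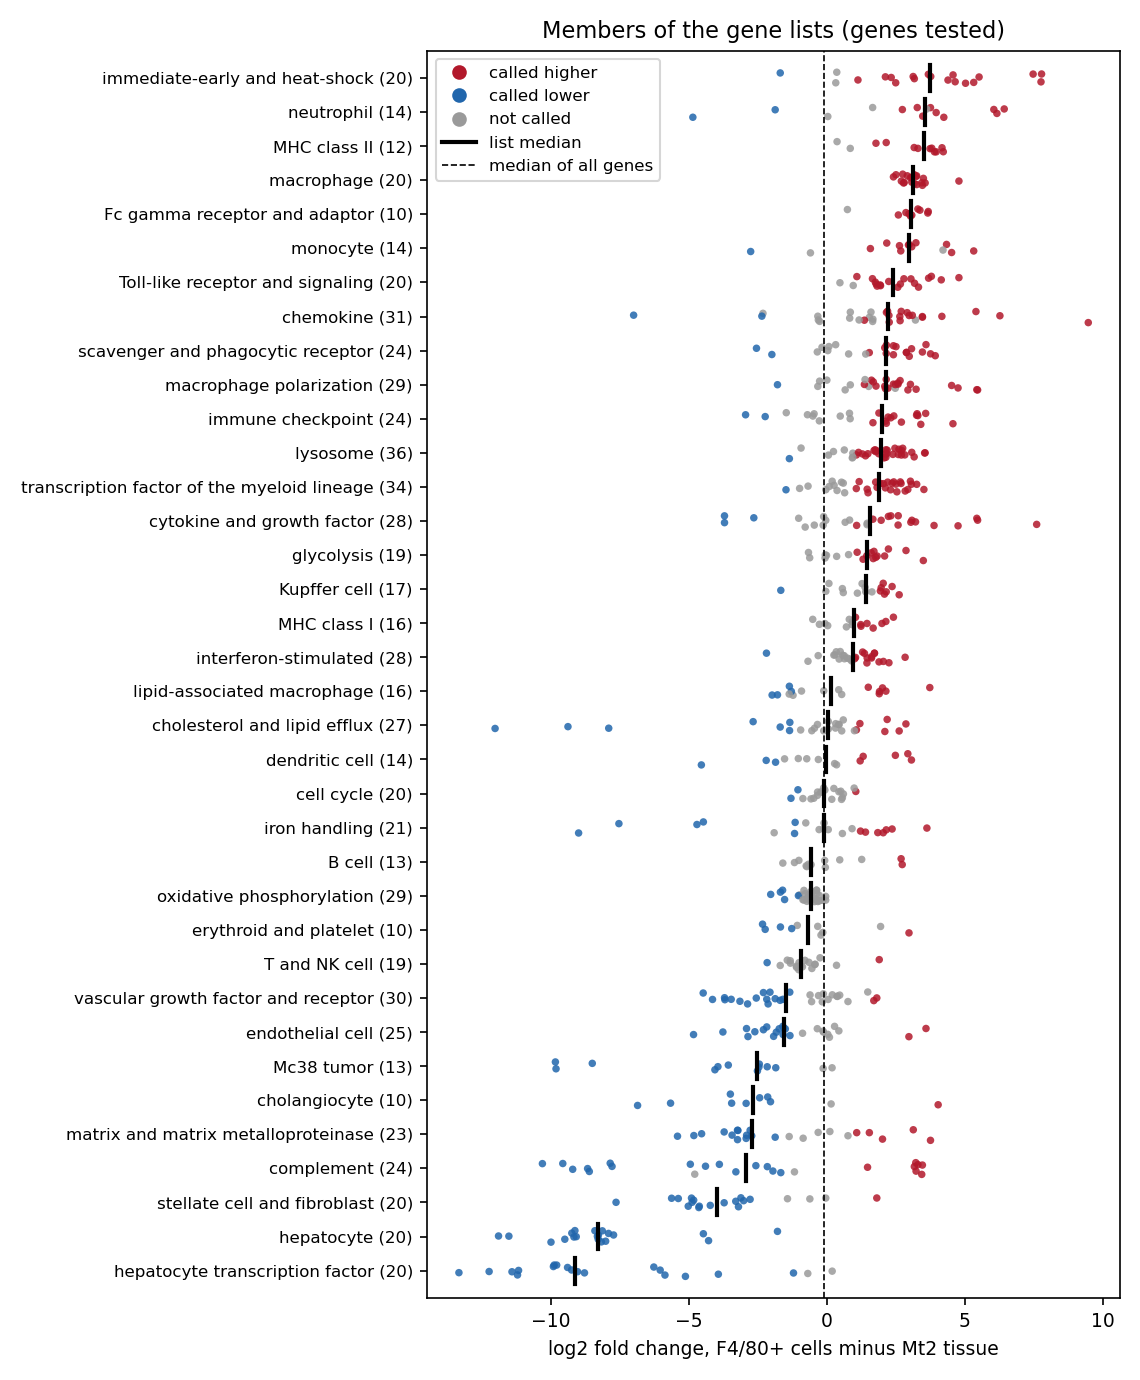
Log2 fold change of F4/80+ cells against Mt2 tissue (horizontal axis) for the tested members of 36 gene lists (rows, number tested in brackets), with each point a gene colored by call, a black bar at the list's median and a dashed line at the median of all genes. Macrophage, MHC class II and immediate-early lists lie to the right, with medians of 3.12, 3.52 and 3.72, and hepatocyte genes lie far to the left, with a median of -8.31.

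Markers of macrophage origin gave a mixed account. Of 17 Kupffer cell genes tested, 7 were higher, 1 was lower and the median log2 fold change was 1.41. The most exclusive of them, Clec4f, a galactose-binding lectin, stood at 1065, 393 and 241 CPM in the F4/80+ cells and 259 and 106 CPM in Mt2, and Timd4, a receptor for phosphatidylserine on dying cells, at 63.8, 25.8 and 19.6 CPM against 20.5 and 7.07 CPM. For both genes Mt2 replicate 1 lay within the range of the F4/80+ libraries, and neither was called (adjusted p = 0.0613 and 0.0537). Cd163, the hemoglobin scavenger receptor, was called, at 442, 159 and 109 CPM against 69.1 and 37.5 CPM (log2 fold change 2.15 ± 0.78, adjusted p = 0.0309). The higher genes also included Pltp, which encodes phospholipid transfer protein (396, 330.4 and 288 CPM against 69.3 and 40.6 CPM, log2 fold change 2.62 ± 0.32, adjusted p = 9.42e-06), and Spic, the transcription factor of red pulp and Kupffer macrophages (15.7, 8.14 and 5.96 CPM against 1.93 and 1.91 CPM, log2 fold change 2.37 ± 0.62, adjusted p = 0.00517). The single lower member, C6, encodes a complement component that hepatocytes also make, and at 123, 48.1 and 28.3 CPM against 315 and 107 CPM its groups overlapped. Among the F4/80+ libraries all 17 genes were highest in replicate 1. The count moved with the settings, to 12 higher with DESeq2, with total-count scaling or with no filter on low counts, and Clec4f and Timd4 were called in each of these. Without F4/80+ replicate 3 the Kupffer list had 12 genes higher and 0 lower, with Clec4f called (log2 fold change 2.00, adjusted p = 0.03) and Timd4 too (log2 fold change 1.71, adjusted p = 0.0291). Timd4 was also called without F4/80+ replicate 2 (log2 fold change 1.61, adjusted p = 0.0488) or Mt2 replicate 1 (log2 fold change 2.36, adjusted p = 0.0192). Without F4/80+ replicate 1 the list's median was 0.79. In the same case the call of Cd163 was lost (log2 fold change 1.33, adjusted p = 0.144), as it was without Mt2 replicate 1 (log2 fold change 2.66, adjusted p = 0.0589) or Mt2 replicate 2 (log2 fold change 1.82, adjusted p = 0.159). C6 lost its call without Mt2 replicate 1 (log2 fold change -0.70, adjusted p = 0.399), F4/80+ replicate 2 (log2 fold change -1.48, adjusted p = 0.08) or F4/80+ replicate 3 (log2 fold change -1.30, adjusted p = 0.0815).

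Monocyte genes were higher in the F4/80+ cells more evenly. Of 14 tested, 11 were higher and 1 lower, with a median log2 fold change of 2.97, or 3.69 without Mt2 replicate 2. Ly6c2, a surface antigen of classical monocytes with a close paralog, stood at 281, 397 and 428 CPM against 27.8 and 59.3 CPM (log2 fold change 3.08 ± 0.61, adjusted p = 6.48e-04). Ccr2, the receptor for the monocyte attractant CCL2, stood at 481, 864 and 659.5 CPM against 54.8 and 114 CPM (log2 fold change 2.98 ± 0.49, adjusted p = 1.40e-04). F4/80+ replicate 2 was the highest for Ccr2, and every F4/80+ library lay above both Mt2 libraries for these genes. The largest difference belonged to Nr4a1, an orphan nuclear receptor that marks patrolling monocytes and is also an immediate-early gene, at 594, 166 and 247 CPM against 8.06 and 8.67 CPM (log2 fold change 5.32 ± 0.56, adjusted p = 2.43e-06). Chil3, a chitinase-like protein, stood at 90.1, 128 and 289 CPM against 3.93 and 10.6 CPM (log2 fold change 4.52 ± 0.77, adjusted p = 1.97e-04). Vcan, which encodes the matrix proteoglycan versican and is also made by stromal and tumor cells, was lower, at 41.5, 66.0 and 81.6 CPM against 318 and 537 CPM (log2 fold change -2.76 ± 0.52, adjusted p = 4.56e-04). Ace, the angiotensin-converting enzyme, stood at 6.08, 7.59 and 9.19 CPM against 10.5 and 12.5 CPM and was not called.

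Of 16 genes of lipid-associated macrophages, 6 were higher and 4 lower, the latter at the share of all genes (25.1%), with a median log2 fold change of 0.16. Trem2, a receptor for lipids that defines these cells, had the largest difference, at 268, 258 and 266 CPM against 14.6 and 25.1 CPM (log2 fold change 3.73 ± 0.37, adjusted p = 1.42e-06). Its F4/80+ libraries were almost level. Ctsb, the lysosomal protease cathepsin B, stood at 5517, 3872 and 4337 CPM against 1084 and 991 CPM (log2 fold change 2.14 ± 0.26, adjusted p = 8.08e-06), and Lgals3, which encodes galectin-3, at 340.0, 328 and 345 CPM against 60.8 and 119 CPM (log2 fold change 1.91 ± 0.37, adjusted p = 5.70e-04). The lower genes were Fabp5, a fatty acid binding protein (-1.99), Ctsl, the protease cathepsin L (-1.36), Cd9, a tetraspanin (-1.29), and Arg1, the arginase of the urea cycle and of some macrophages, which hepatocytes make in quantity. Arg1 stood at 119, 199 and 168 CPM against 928 and 194 CPM, so its groups overlapped, and the call was lost without any F4/80+ library or without Mt2 replicate 1 (log2 fold change -0.26, adjusted p = 0.815). Its log2 fold change of -1.79 became log2 fold change -1.61, adjusted p = 0.13 without F4/80+ replicate 1, log2 fold change -1.96, adjusted p = 0.0736 without replicate 2 and log2 fold change -1.82, adjusted p = 0.0952 without replicate 3. Cd9 lost its call without Mt2 replicate 2 (log2 fold change -0.98, adjusted p = 0.00686). Spp1, which encodes osteopontin, stood at 190.0, 94.8 and 222 CPM against 290.3 and 499.8 CPM and was not called (adjusted p = 0.0533); without Mt2 replicate 1 (log2 fold change -1.57, adjusted p = 0.0453) or F4/80+ replicate 3 (log2 fold change -1.47, adjusted p = 0.05) it was called lower. It was also called lower with DESeq2, with median-ratio size factors, with only the 5 libraries in the fit or with other filters on low counts. Dendritic cell genes had 5 of 14 higher and 3 lower, the latter near the share of all genes (25.1%), with a median log2 fold change of -0.01. Irf8, a factor of monocytes and dendritic cells, stood at 392, 423 and 364 CPM against 39.3 and 54.4 CPM (log2 fold change 3.07 ± 0.34, adjusted p = 3.43e-06), whereas Zbtb46, which marks classical dendritic cells, stood at 2.84, 4.02 and 3.53 CPM against 10.7 and 14.4 CPM (log2 fold change -1.86 ± 0.27, adjusted p = 3.99e-05). Xcr1 and Clec9a, receptors of cross-presenting dendritic cells, were not called, at 1.80, 2.76 and 2.42 and 3.81, 11.3 and 6.21 CPM against 1.73 and 1.91 and 4.60 and 7.03 CPM.

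The antigen presentation machinery differed strongly for class II and less for class I. Of 12 MHC class II genes, 10 were higher and 0 lower, with a median log2 fold change of 3.52. Cd74 stood at 7281, 14502 and 8338 CPM against 606 and 505 CPM (log2 fold change 4.17 ± 0.77, adjusted p = 3.75e-04), and H2-Eb1, a beta chain, at 2483, 5651 and 2897 CPM against 202 and 193 CPM (log2 fold change 4.22 ± 0.87, adjusted p = 9.03e-04). F4/80+ replicate 2 was the highest for these genes, and the lowest F4/80+ library still lay far above both Mt2 libraries. Ciita, the transactivator that switches on the class II genes, went the same way, at 124, 288 and 129 CPM against 13.3 and 13.7 CPM (log2 fold change 3.74 ± 0.51, adjusted p = 2.50e-05). H2-Oa and H2-Eb2 were near or below a few CPM in all 5 libraries and were not called. Of 16 class I genes, 8 were higher and 0 lower, with a median log2 fold change of 0.98. H2-M3, which presents formylated peptides, had the largest of these differences (log2 fold change 2.41 ± 0.39, adjusted p = 1.06e-04), followed by Nlrc5, the transactivator of class I genes (log2 fold change 2.14 ± 0.29, adjusted p = 2.10e-05). H2-K1 and B2m, the heavy and light chains of class I, stood at 3047, 3340.4 and 3139.7 and 2818, 2979.5 and 2844 CPM against 1991 and 1625 and 1955 and 1573 CPM, without overlap but with log2 fold changes under 1 (0.81 and 0.71). H2 genes are close copies of one another, so reads could be split between them.

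Receptors for antibodies and microbes were higher nearly throughout. Of 10 genes of Fc gamma receptors and their adaptors, 9 were higher, with a median log2 fold change of 3.05. Fcgr3, an activating receptor, stood at 863, 777 and 714 CPM against 45.8 and 78.4 CPM (log2 fold change 3.66 ± 0.39, adjusted p = 2.63e-06), and Fcgr2b, the inhibitory one, at 679.6, 845 and 687 CPM against 97.1 and 90.4 CPM (log2 fold change 2.97 ± 0.20, adjusted p = 1.02e-07). Inpp5d, the phosphatase SHIP1 that acts below the inhibitory receptor, had the largest difference (log2 fold change 3.68 ± 0.37, adjusted p = 1.51e-06). Fcgrt, the neonatal receptor that recycles albumin and is made by hepatocytes too, was the member not called, at 285, 189 and 187 CPM against 178 and 85.4 CPM, and was called higher without Mt2 replicate 1 (log2 fold change 1.37, adjusted p = 0.00594). Of 20 genes of Toll-like receptors and their signaling, 18 were higher, with a median log2 fold change of 2.41. Tlr2, the receptor for bacterial lipoproteins, stood at 329, 231 and 259 CPM against 14.9 and 24.5 CPM (log2 fold change 3.79 ± 0.35, adjusted p = 8.71e-07), and Nlrp3, the sensor of the inflammasome, at 147, 110.1 and 101 CPM against 4.73 and 8.59 CPM (log2 fold change 4.15 ± 0.39, adjusted p = 8.18e-07). Unc93b1, which carries the endosomal receptors to their place, was the most abundant member per kilobase (458 ± 23.8 FPKM, SD, n = 3) and stood at 1263, 1379.8 and 1263 CPM against 128 and 159.8 CPM (log2 fold change 3.18 ± 0.26, adjusted p = 3.06e-07). Tlr3, the receptor for double-stranded RNA, stood at 27.7, 34.3 and 31.9 CPM against 20.3 and 24.8 CPM and was not called.

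Of 24 scavenger and phagocytic receptors, 15 were higher and 2 lower, with a median log2 fold change of 2.16. Stab1, the scavenger receptor stabilin-1, which liver endothelium also carries, stood at 2719, 1897 and 2386 CPM against 163 and 223 CPM (log2 fold change 3.59 ± 0.43, adjusted p = 7.29e-06). Mertk and Axl, receptors that recognize dying cells, stood at 282, 249 and 199.6 and 984, 1197 and 1051 CPM against 42.6 and 43.1 and 297 and 445 CPM (log2 fold change 2.51 ± 0.39, adjusted p = 8.36e-05 and log2 fold change 1.54 ± 0.29, adjusted p = 4.94e-04). The remaining member of that receptor family, Tyro3, was lower, at 3.61, 3.12 and 3.79 CPM against 13.7 and 27.4 CPM (log2 fold change -2.55 ± 0.34, adjusted p = 2.32e-05). Colec12, a collectin of vessels and stroma, was the other lower gene (log2 fold change -1.99 ± 0.49, adjusted p = 0.00344) and lost its call without Mt2 replicate 1 (log2 fold change -1.42, adjusted p = 0.0527). Marco stood at 82.3, 41.7 and 33.9 CPM against 69.0 and 31.1 CPM and was not called. Of 36 lysosomal genes, 28 were higher and 1, Ctsl, lower, with a median log2 fold change of 1.98. Laptm5, a lysosomal membrane protein of blood cells (log2 fold change 3.54 ± 0.36, adjusted p = 1.83e-06), and Psap, the precursor of the saposins (log2 fold change 2.70 ± 0.31, adjusted p = 5.81e-06), were among the higher genes, and Psap stood at 6302, 7688 and 6265 CPM against 1047 and 1029 CPM. Ctsl stood at 361, 267 and 301 CPM against 803 and 786 CPM (log2 fold change -1.36 ± 0.25, adjusted p = 3.82e-04).

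Complement genes differed in both directions. Of 24 tested, 7 were higher and 15 lower, with a median log2 fold change of -2.94, or -2.24 without Mt2 replicate 1. The 3 chains of C1q, which macrophages make, were all higher, and C1qb stood at 3992, 3850.4 and 3859 CPM against 291 and 428 CPM (log2 fold change 3.44 ± 0.39, adjusted p = 5.00e-06). The receptors C5ar1 and C3ar1 for the anaphylatoxins were higher as well (log2 fold change 3.30 ± 0.34, adjusted p = 2.20e-06 and log2 fold change 3.22 ± 0.44, adjusted p = 2.37e-05). The lower genes included components known as products of hepatocytes. Mbl1, a mannose-binding lectin, stood at 0.0516, 0.10 and 0.151 CPM against 208 and 67.4 CPM (log2 fold change -10.31 ± 0.73, adjusted p = 1.39e-07), and Hc, which encodes C5, at 2.42, 1.81 and 1.16 CPM against 1095 and 317 CPM (log2 fold change -8.61 ± 0.63, adjusted p = 1.70e-07). Mbl1 had at most 3 counts in each F4/80+ library, so the size of its fold is not fixed by these data. C3 kept a level of 407, 921 and 450.1 CPM in the F4/80+ cells and was lower than in Mt2, at 8854 and 2812 CPM (log2 fold change -3.30 ± 0.55, adjusted p = 1.50e-04). Of 21 iron genes, 7 were higher and 6 lower, the latter near the share of all genes (25.1%), with a median log2 fold change of -0.10, or 0.49 without Mt2 replicate 1. Slc11a1, which pumps metal ions out of the phagosome, was higher (log2 fold change 3.63 ± 0.31, adjusted p = 4.18e-07), and Hamp, the iron hormone hepcidin of hepatocytes, was lower, at 0.516, 0.151 and 0.0505 CPM against 158 and 92.1 CPM (log2 fold change -9.00 ± 0.99, adjusted p = 3.68e-06). The exporter Slc40a1, or ferroportin, stood at 337, 162 and 109 CPM against 187 and 87.7 CPM with overlap and was not called.

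Immediate-early and heat-shock genes, which are induced within minutes by growth factors, stress or handling of cells, had 17 of 20 members higher and 1 lower, at a median log2 fold change of 3.72. Fos stood at 3452, 1877 and 2471 CPM against 8.26 and 15.6 CPM (log2 fold change 7.76 ± 0.53, adjusted p = 1.24e-07), and Fosb at 877, 237 and 316 CPM against 1.60 and 2.65 CPM (log2 fold change 7.78 ± 0.67, adjusted p = 4.74e-07). The inducible heat-shock gene Hspa1a stood at 793, 306 and 296 CPM against 3.86 and 1.47 CPM (log2 fold change 7.48 ± 0.80, adjusted p = 2.69e-06), and it shares reads with its near-identical copy Hspa1b, which was also higher (4.65). Among the F4/80+ libraries all 20 genes were highest in replicate 1, yet the groups were far apart in every library for these examples. The summed level of the list was 8650 to 18312 CPM in the F4/80+ cells and 874 and 914 CPM in Mt2. Hsph1, a co-chaperone, was lower, at 110.3, 54.7 and 65.0 CPM against 203 and 292 CPM (log2 fold change -1.69 ± 0.33, adjusted p = 5.28e-04), and Dnajb1, another co-chaperone, stood at 125, 53.6 and 62.8 CPM against 63.4 and 62.0 CPM with overlap. The sorted cells were brought into suspension and passed over a magnetic column and the tissue was not, so handling cannot be told apart from the kind of sample here, and the part of handling in the inflammatory lists was not tested.

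Of 31 chemokines and receptors, 17 were higher and 2 lower, with a median log2 fold change of 2.20. Ccl3 and Ccl4, which attract monocytes and T cells, stood at 197, 117 and 186 and 170.2, 77.5 and 146 CPM against 1.07 and 3.08 and 0.866 and 5.07 CPM (log2 fold change 6.27 ± 0.62, adjusted p = 1.45e-06 and log2 fold change 5.41 ± 0.68, adjusted p = 1.15e-05). Cx3cr1, the fractalkine receptor of monocytes and macrophages, stood at 671, 846 and 805 CPM against 46.6 and 93.8 CPM (log2 fold change 3.46 ± 0.47, adjusted p = 2.69e-05), while its ligand Cx3cl1 was lower (log2 fold change -2.36 ± 0.33, adjusted p = 2.88e-05). Cxcr4 was higher, at 219, 119 and 114 CPM against 6.73 and 9.93 CPM (log2 fold change 4.17 ± 0.48, adjusted p = 5.43e-06), while its ligand Cxcl12, a product of stroma, was lower, at 1.70, 0.452 and 1.11 CPM against 202 and 79.0 CPM (log2 fold change -7.01 ± 0.52, adjusted p = 1.88e-07). Ccl2, the main monocyte attractant, stood at 181, 108 and 212 CPM against 55.9 and 132 CPM with overlap and was not called with all libraries; without Mt2 replicate 2 it was called higher (log2 fold change 1.62, adjusted p = 0.0144). Cxcl9, induced by interferon gamma, was called (log2 fold change 2.66 ± 0.87, adjusted p = 0.0189) but lost the call without F4/80+ replicate 2 (log2 fold change 2.04, adjusted p = 0.0656), Mt2 replicate 1 (log2 fold change 3.08, adjusted p = 0.054) or Mt2 replicate 2 (log2 fold change 2.37, adjusted p = 0.107).

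The promoter of Cxcl2 is printed because this gene had the largest difference of its list and NF-kappaB, the factor of inflammatory induction, has a well-defined site. The letters GGGA, then any base (N), then TTTCC, searched as 1 run on both strands, were present in 117 of all 32851 promoters (0.36%). Counted per gene, they were present in 3 of the 21 chemokine genes with an entry (14.29%) and in 0 of 14 genes of the macrophage list. The shares of genes and of promoters are not like measures. Cxcl2 (chr5:90903649-90903870, plus strand, GRCm38.p6) holds 1 match, shown in capitals, that begins 97 bases before the RefSeq start. The 222 bases printed end before the first annotated transcript start of the gene, which is nearer, and the match begins 69 bases before that start.
Cxcl2: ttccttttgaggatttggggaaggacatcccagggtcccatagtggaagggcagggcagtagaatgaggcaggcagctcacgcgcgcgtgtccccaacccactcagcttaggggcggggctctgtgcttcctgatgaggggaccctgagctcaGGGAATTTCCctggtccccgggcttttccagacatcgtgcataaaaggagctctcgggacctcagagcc
Of 28 cytokines and growth factors, 15 were higher and 3 lower, with a median log2 fold change of 1.57, or 2.18 without Mt2 replicate 1. Osm, which encodes oncostatin M, a signal to hepatocytes and stroma, stood at 223, 53.0 and 95.9 CPM against 0.600 and 0.651 CPM (log2 fold change 7.61 ± 0.68, adjusted p = 5.98e-07). Il1b, a pyrogenic cytokine, stood at 425, 184 and 197 CPM against 5.66 and 6.46 CPM (log2 fold change 5.47 ± 0.76, adjusted p = 2.90e-05), and Tnf at 57.4, 46.6 and 63.2 CPM against 0.466 and 1.95 CPM (log2 fold change 5.44 ± 0.56, adjusted p = 1.88e-06). Il10, the anti-inflammatory cytokine, was higher too, at 35.0, 3.57 and 10.5 CPM against 0.267 and 0.867 CPM (log2 fold change 4.76 ± 0.83, adjusted p = 2.21e-04), with wide spread among the F4/80+ libraries. Tgfb1 was higher (log2 fold change 2.58 ± 0.28, adjusted p = 3.68e-06). The lower genes were Csf1, the macrophage growth factor (log2 fold change -2.65 ± 0.33, adjusted p = 9.80e-06), Igf1, an insulin-like growth factor that hepatocytes make in quantity (log2 fold change -3.71 ± 0.48, adjusted p = 1.53e-05), and Tgfb2 (log2 fold change -3.71 ± 0.61, adjusted p = 1.39e-04). The receptor and the ligand of the CSF1 axis therefore lay on opposite sides. Il6 stood at 2.11, 0.251 and 0.202 CPM against 0.466 and 0.173 CPM and was not called.

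**Figure D3:**
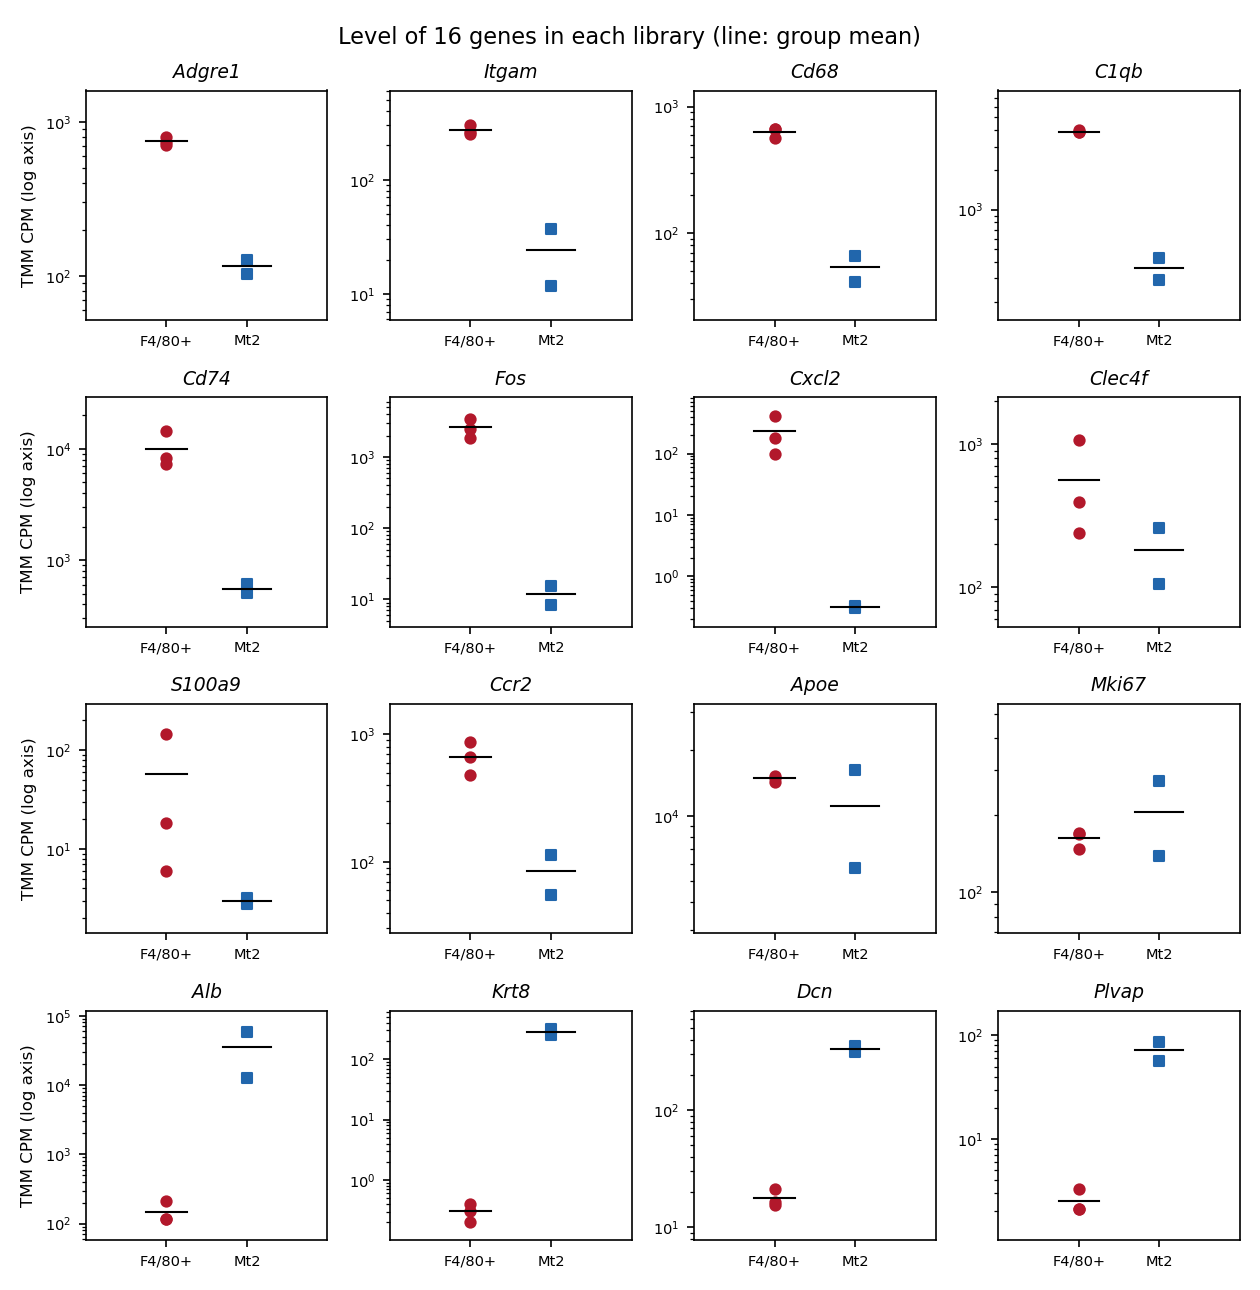
Level of 16 genes in each library, TMM-scaled CPM on a log axis, with the 3 F4/80+ and the 2 Mt2 libraries as points. A line marks each group's mean, and the F4/80+ points lie above the Mt2 points for Adgre1, Cd74 and Fos, below them for Alb and Krt8, and among them for Apoe and Mki67.

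The list of polarization genes, which joins markers of classical and alternative activation, had 20 of 29 members higher and 1, Arg1, lower (described above with its libraries), with a median log2 fold change of 2.15. Genes of both kinds were among the higher ones. Of the classical kind, Irf5, a transcription factor, stood at 371, 376 and 362 CPM against 41.4 and 49.0 CPM (log2 fold change 3.03 ± 0.21, adjusted p = 1.24e-07) and Cd86, a costimulatory ligand, at 77.0, 75.9 and 66.0 CPM against 16.1 and 15.3 CPM (log2 fold change 2.22 ± 0.30, adjusted p = 2.20e-05). Of the alternative kind, Il4ra, the interleukin-4 receptor, stood at 655, 503 and 496 CPM against 85.8 and 99.3 CPM (log2 fold change 2.57 ± 0.25, adjusted p = 1.21e-06). Nos2, the inducible nitric oxide synthase, and Retnla were low in all libraries, at 1.13, 5.88 and 1.51 and 0.619, 0.251 and 0.151 CPM against 0.933 and 1.04 and 0.133 and 0 CPM, and were not called. Among 34 transcription factors of the myeloid lineage, 23 were higher and 1 lower, with a median log2 fold change of 1.88. Spi1, described above, led the list. Cebpb, a factor of inflammatory monocytes, was the most abundant member per kilobase (510.5 ± 159 FPKM, SD, n = 3) and stood at 1044, 624 and 635 CPM against 236 and 73.9 CPM (log2 fold change 2.31 ± 0.57, adjusted p = 0.00321). Irf7, a factor of the interferon response, was higher as well (log2 fold change 2.05 ± 0.27, adjusted p = 1.65e-05). Rxra, a nuclear receptor also plentiful in hepatocytes, was lower with overlap, at 173, 99.0 and 97.8 CPM against 524 and 165 CPM, and lost its call without Mt2 replicate 1 (log2 fold change -0.42, adjusted p = 0.421). Without F4/80+ replicate 1, F4/80+ replicate 2 or Mt2 replicate 2 there were 2 lower genes in the list.

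Of 24 immune checkpoint genes tested, 14 were higher and 2 lower, with a median log2 fold change of 2.01. Lilrb4a, an inhibitory receptor of myeloid cells, stood at 171, 174 and 185 CPM against 3.07 and 11.5 CPM (log2 fold change 4.57 ± 0.72, adjusted p = 8.90e-05). Vsir, which encodes VISTA, stood at 749.7, 768 and 708 CPM against 50.4 and 73.4 CPM (log2 fold change 3.58 ± 0.30, adjusted p = 3.94e-07), and Sirpa, the receptor for the signal CD47, at 937, 1077 and 1056 CPM against 92.2 and 122 CPM (log2 fold change 3.25 ± 0.30, adjusted p = 8.11e-07). Cd274, which encodes PD-L1, stood at 62.5, 86.7 and 46.6 CPM against 12.2 and 12.1 CPM (log2 fold change 2.43 ± 0.35, adjusted p = 4.28e-05). Cd47 itself stood at 215, 209 and 211 CPM against 125 and 111 CPM and was not called. The lower genes were Nectin2, an adhesion ligand of epithelium and tumor cells (log2 fold change -2.24 ± 0.23, adjusted p = 2.32e-06), and Cd200, whose receptor gene Cd200r1 was higher (-2.95 and 1.67). Of 28 interferon-stimulated genes, 14 were higher and 1 lower, with a median log2 fold change of 0.95. Mx1, an antiviral GTPase, had the largest difference (log2 fold change 2.84 ± 0.48, adjusted p = 1.65e-04), and Iigp1, a GTPase that hepatocytes also induce, was the lower gene (log2 fold change -2.19 ± 0.37, adjusted p = 1.57e-04). Without Mt2 replicate 1 this list had 9 genes higher and 2 lower.

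Of 19 glycolysis genes, 12 were higher and 0 lower, with a median log2 fold change of 1.45. Hk3, the hexokinase of myeloid cells, stood at 278, 269 and 256 CPM against 21.8 and 25.5 CPM (log2 fold change 3.50 ± 0.38, adjusted p = 3.00e-06), Hk2, the inducible one, at 132, 164 and 126 CPM against 15.5 and 22.9 CPM (log2 fold change 2.87 ± 0.30, adjusted p = 2.05e-06), and Aldoa, an aldolase, at 672, 939 and 746 CPM against 201 and 258 CPM (log2 fold change 1.77 ± 0.29, adjusted p = 1.19e-04). Ldha, which makes lactate, stood at 508, 646 and 579.8 CPM against 1151 and 629 CPM with overlap and was not called. Of 29 genes of oxidative phosphorylation, 0 were higher and 5 lower, a smaller share than the 25.1% called lower among all genes, and 12 were lower without Mt2 replicate 2. Their median log2 fold change was -0.58 with all libraries, and 0.11 with tissue of the large metastases (Ht) in place of Mt2. The largest difference was that of Ndufa4, at 56.3, 51.3 and 51.3 CPM against 269.7 and 165 CPM (log2 fold change -2.04 ± 0.30, adjusted p = 6.01e-05). Cholesterol and lipid efflux genes had 6 of 27 higher and 7 lower, near the shares of all genes (17.1% and 25.1%), with a median log2 fold change of 0.06. Abcg1, which loads cholesterol onto lipoproteins, was higher (log2 fold change 2.87 ± 0.19, adjusted p = 1.02e-07), while Abca1, its partner, was at 219.8, 244 and 177 CPM against 218 and 97.1 CPM and was called higher without Mt2 replicate 1 (log2 fold change 1.14, adjusted p = 0.0244). Scd1, the fatty acid desaturase of the liver, was lower, at 33.1, 24.6 and 19.7 CPM against 10297 and 2109 CPM (log2 fold change -7.91 ± 0.73, adjusted p = 7.40e-07). Abcg5, which exports sterols into bile, was listed at 0 in the F4/80+ cells and was at least 181-fold lower, or 70.6-fold without Mt2 replicate 1.

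Of 30 vascular growth factors and receptors, 16 were lower and 2 higher, or 14 lower when one or the other Mt2 library was left out, with a median log2 fold change of -1.47, or -0.84 without Mt2 replicate 1. Vegfa, the main endothelial growth factor, stood at 107, 71.3 and 48.2 CPM against 63.9 and 45.4 CPM with overlap and was not called (adjusted p = 0.173), whereas Vegfc, which acts on lymphatic vessels, was lower, at 1.65, 1.71 and 2.42 CPM against 16.8 and 25.9 CPM (log2 fold change -3.47 ± 0.32, adjusted p = 7.32e-07). Epas1, the hypoxia factor of endothelium, was lower (log2 fold change -4.15 ± 0.44, adjusted p = 2.78e-06), and Hif1a stood at 98.2, 132 and 118 CPM against 75.2 and 104 CPM with overlap. The higher genes were Notch1, a receptor of vessel branching and of blood cells (log2 fold change 1.70 ± 0.47, adjusted p = 0.00696), and Ecm1, a secreted matrix protein, at 362, 356 and 437 CPM against 117 and 102 CPM (log2 fold change 1.81 ± 0.28, adjusted p = 7.62e-05). Of 23 matrix and metalloproteinase genes, 13 were lower and 5 higher, with a median log2 fold change of -2.72. Mmp9, a gelatinase of neutrophils and tumors, was lower, at 17.3, 28.3 and 53.1 CPM against 97.3 and 144 CPM (log2 fold change -1.87 ± 0.42, adjusted p = 0.00172), and Lox, which crosslinks collagen, was lower (log2 fold change -5.42 ± 0.71, adjusted p = 1.78e-05). Adam8, a sheddase of leukocytes, was higher, at 197, 157 and 246 CPM against 13.5 and 31.9 CPM (log2 fold change 3.13 ± 0.64, adjusted p = 8.18e-04). The others higher were Mmp8, Mmp12, Mmp13 and Adam17, and without Mt2 replicate 1 only 2 of the 5 were still called. Without that library Adam17 had log2 fold change 0.81, adjusted p = 0.00743, Mmp13 log2 fold change 1.25, adjusted p = 0.101 and Mmp12 log2 fold change 1.74, adjusted p = 0.179. Mmp12 also lost its call without Mt2 replicate 2 (log2 fold change 2.44, adjusted p = 0.0807) or F4/80+ replicate 1 (log2 fold change 1.45, adjusted p = 0.146).

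Markers of hepatocytes were far lower in the F4/80+ cells. Bulk libraries cannot tell fewer cells of a type from less RNA per cell. All 20 hepatocyte genes were lower, with a median log2 fold change of -8.31 and a summed level of 462 to 563 CPM in the F4/80+ cells against 133071 and 35756 CPM in Mt2. Without Mt2 replicate 1, the richer in these transcripts, the median was -7.38. Alb stood at 214, 116 and 115 CPM against 59074 and 12569 CPM (log2 fold change -7.92 ± 0.92, adjusted p = 5.84e-06), and Cps1, the first enzyme of the urea cycle, at 0.825, 0.502 and 0.303 CPM against 3760.4 and 448 CPM (log2 fold change -11.90 ± 1.07, adjusted p = 6.25e-07). No hepatocyte marker was at 0 in all F4/80+ libraries, and per kilobase Arg1 and Alb were the most abundant there, at 72.8 ± 17.9 and 63.3 ± 24.4 FPKM (SD, n = 3). The groups overlapped for Arg1. Of 20 hepatocyte transcription factors, 18 were lower and 0 higher, with a median log2 fold change of -9.15, or -7.94 without Mt2 replicate 1. Hnf4a, the central factor of hepatocyte identity, stood at 0.722, 0.703 and 0.505 CPM against 1006 and 225 CPM (log2 fold change -9.89 ± 0.69, adjusted p = 1.29e-07). Ppara, the fatty acid sensor, was listed at 0 in all F4/80+ libraries against 111 and 25.5 CPM and was at least 447-fold lower, or 167-fold without Mt2 replicate 1, and Onecut1 and Foxa1 were at 0 there as well. Cebpa, which myeloid cells use too, stood at 415, 362 and 326 CPM against 522 and 122 CPM and was not called with all libraries, but was called higher without Mt2 replicate 1 (log2 fold change 1.59, adjusted p = 0.00241).

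Stromal and tumor markers were lower too. Of 20 genes of stellate cells and fibroblasts, 16 were lower and 1 higher, with a median log2 fold change of -3.98 and a summed level of 817 to 1110 CPM against 4569 and 7331 CPM. Dcn, the proteoglycan decorin, stood at 15.5, 16.4 and 21.4 CPM against 313 and 353 CPM (log2 fold change -4.23 ± 0.23, adjusted p = 3.68e-08), and Col3a1, a fibrillar collagen, at 253, 309.6 and 401 CPM against 2369 and 3973 CPM (log2 fold change -3.30 ± 0.43, adjusted p = 1.73e-05). The list's lowest fold change was that of Reln, which encodes reelin (log2 fold change -7.64 ± 0.56, adjusted p = 1.70e-07). Ecm1 was the higher member. Of 13 markers of the Mc38 tumor tested, 11 were lower and 0 higher, with a median log2 fold change of -2.52 and a summed level of 1087 to 1225 CPM against 1759 and 2490 CPM, of which Vim made up the greater part in the F4/80+ cells. Without F4/80+ replicate 3 the median was -3.18. Krt8, an epithelial keratin, stood at 0.309, 0.402 and 0.202 CPM against 318 and 254 CPM (log2 fold change -9.84 ± 0.46, adjusted p = 1.40e-08), and Cdh2, or N-cadherin, at 0.0516, 0 and 0.101 CPM against 76.6 and 27.2 CPM (log2 fold change -9.82 ± 0.61, adjusted p = 7.79e-08). The F4/80+ values of Cdh2 lie under the floor of 3 counts, so the size of its fold is not fixed by these data. Krt8 and Krt18 are also made by hepatocytes, and 2 markers of the list, Krt20 and Cdx2, had too few counts to be tested. Vim, which macrophages make as well, stood at 1036, 1061 and 1154 CPM against 869 and 1512 CPM and was not called. Stra6, a retinol transporter, and Grem1, a BMP antagonist, were at 18.8, 25.2 and 31.5 and 3.35, 5.18 and 4.29 CPM against 95.0 and 183 and 46.6 and 85.5 CPM (log2 fold change -2.46 ± 0.45, adjusted p = 4.25e-04 and log2 fold change -3.95 ± 0.37, adjusted p = 1.54e-06). Of 10 cholangiocyte genes, 8 were lower and 1 higher, with a summed level of 4.33 to 5.55 CPM against 47.4 and 36.6 CPM, and Cftr was at 0 in the F4/80+ cells. Without Mt2 replicate 1, Mt2 replicate 2 or F4/80+ replicate 3, 0 genes of this list were higher.

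Of 25 endothelial genes tested, 15 were lower and 2 higher, with a median log2 fold change of -1.56, or -0.84 without Mt2 replicate 1. Plvap, of the diaphragms of fenestrated vessels, stood at 3.30, 2.11 and 2.12 CPM against 86.5 and 57.0 CPM (log2 fold change -4.83 ± 0.29, adjusted p = 6.89e-08), and Vwf, the von Willebrand factor, at 0.619, 2.26 and 1.01 CPM against 24.3 and 11.4 CPM (log2 fold change -3.77 ± 0.39, adjusted p = 2.20e-06). Cdh5 and Pecam1, junctional proteins of endothelium, were not called, at 100.1, 48.9 and 31.5 and 46.8, 49.6 and 32.1 CPM against 77.9 and 54.6 and 45.6 and 38.1 CPM. Both higher members, Stab1 and Fcgr2b, are also carried by macrophages and account for the larger summed level in the F4/80+ cells, 3309 to 3934 CPM against 1425 and 1084 CPM. None of the markers was at 0 in a whole group. Clec4g, a lectin of sinusoidal endothelium, was lower with overlap, at 13.9, 21 and 11.1 CPM against 70.2 and 17.0 CPM, and lost its call without Mt2 replicate 1 (log2 fold change -0.15, adjusted p = 0.858), F4/80+ replicate 1 (log2 fold change -1.44, adjusted p = 0.0877) or F4/80+ replicate 3 (log2 fold change -1.32, adjusted p = 0.105). Kdr, the receptor VEGFR2, lost its call without Mt2 replicate 1 (log2 fold change -1.60 ± 0.28, adjusted p = 2.49e-04 with all libraries, log2 fold change -0.92, adjusted p = 0.00975 without it).

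Of 19 T and NK cell genes, 1 was higher and 1 lower, with a median log2 fold change of -0.96 and a summed level of 34.8 to 63.9 CPM against 54.3 and 93.9 CPM. Cd4, which some myeloid cells also carry, was the higher gene (log2 fold change 1.90 ± 0.36, adjusted p = 5.11e-04), while Cd3e, of the T cell receptor complex, stood at 0.670, 1.91 and 2.07 CPM against 1.40 and 2.26 CPM. Eomes, a factor of NK and T cells, was lower (log2 fold change -2.17 ± 0.60, adjusted p = 0.00735) and lost the call without Mt2 replicate 2 (log2 fold change -1.78, adjusted p = 0.0574), while 2 genes of the list were lower without F4/80+ replicate 3 and 7 with no filter on low counts. Of 13 B cell genes, 2 were higher, near the share of all genes (17.1%), and 0 lower. Their median log2 fold change was -0.57 and their summed level 229 to 266 CPM against 38.2 and 69.2 CPM. Without Mt2 replicate 2 that median was 0.78, and without Mt2 replicate 1 there was 1 lower gene. The higher genes were Ighm, the heavy chain of IgM, at 198, 202 and 221 CPM against 25.1 and 38.9 CPM (log2 fold change 2.69 ± 0.31, adjusted p = 4.93e-06), and Cd79b, of the B cell receptor (log2 fold change 2.73 ± 0.49, adjusted p = 3.00e-04), whereas the lineage gene Ms4a1 stood at 0.567, 1.41 and 1.01 CPM against 0.733 and 2.39 CPM. Of 10 erythroid and platelet genes, 4 were lower and 1 higher, the last being Pf4, the platelet factor that macrophages also make (log2 fold change 2.98 ± 0.36, adjusted p = 8.49e-06). Leaving out F4/80+ replicate 1, F4/80+ replicate 3 or Mt2 replicate 2 left 2 lower. None of the lymphocyte or blood markers tested was at 0 in every F4/80+ library. The part of these cells in the differences was not tested.

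Few cell cycle genes were called. Of 20 tested, 1 was higher and 2 lower, with a median log2 fold change of -0.09. Mki67, a protein of dividing cells, stood at 169.7, 147 and 171 CPM against 138 and 273 CPM with overlap and was not called (log2 fold change -0.34 ± 0.38, adjusted p = 0.468), and Top2a at 162, 145 and 168 CPM against 149.9 and 289.8 CPM. Mcm3, of the replication helicase, was higher (log2 fold change 1.05 ± 0.28, adjusted p = 0.00565) and Ccnb1 and Bub1, of mitosis, were lower (log2 fold change -1.30 ± 0.42, adjusted p = 0.0164 and log2 fold change -1.05 ± 0.32, adjusted p = 0.0118). These counts moved with single libraries, to 5 higher and 0 lower without Mt2 replicate 2 and to 0 higher and 4 lower without Mt2 replicate 1. The Mt2 libraries differed for these genes, with replicate 2 above replicate 1 for Mki67. Mcm3 lost its call without Mt2 replicate 1 (log2 fold change 0.66, adjusted p = 0.0835) or F4/80+ replicate 3 (log2 fold change 0.97, adjusted p = 0.0191). Bub1 lost its call without Mt2 replicate 2 (log2 fold change -0.23, adjusted p = 0.563), as did Ccnb1 (log2 fold change -0.73, adjusted p = 0.221), which also lost it without F4/80+ replicate 2 (log2 fold change -1.15, adjusted p = 0.0632). Without F4/80+ replicate 1 or replicate 2 the list had 2 genes higher.

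The 3 F4/80+ libraries were alike for most genes and differed in a few groups. Of 7083 genes with at least 20 CPM in one of them, 97.8% stayed within a range of 2-fold, and 25 ranged over more than 4-fold. Neutrophil genes ranged widely. Of 14 tested against Mt2, 9 were higher and 2 lower, with a median log2 fold change of 3.55, but their summed level ran from 204 to 861 CPM in the F4/80+ cells against 164 and 190 CPM in Mt2. Ngp, a granule protein of maturing neutrophils, stood at 3.97, 22.8 and 164 CPM against 0.733 and 0.998 CPM (log2 fold change 6.16 ± 1.74, adjusted p = 0.00881), and S100a9, a calcium-binding alarmin, at 5.93, 18.5 and 147 CPM against 2.80 and 3.21 CPM (log2 fold change 4.24 ± 1.23, adjusted p = 0.00955). F4/80+ replicate 3 was the highest for 11 of the 14 genes and replicate 1 the lowest for those named. With only the 5 libraries in the fit the list had 5 genes higher. With Mt1 tissue in place of Mt2 it had 5 higher and a median log2 fold change of 2.16. With the replicate number as a block it had 7 higher and a median of 2.10. Without replicate 3 it had 5 genes higher and a median log2 fold change of 1.69, and S100a9 had log2 fold change 2.02, adjusted p = 0.063. Without Mt2 replicate 1 or replicate 2 it had 4 higher, with Ngp at log2 fold change 5.99, adjusted p = 0.0587 and log2 fold change 6.47, adjusted p = 0.0526, and S100a9 at log2 fold change 4.15, adjusted p = 0.0617 and log2 fold change 4.39, adjusted p = 0.0523. Csf3r, the receptor for G-CSF, which monocytes carry too, was even among the F4/80+ libraries, at 148, 200.4 and 184 CPM against 7.93 and 14.7 CPM (log2 fold change 3.96 ± 0.41, adjusted p = 1.98e-06). The lower members were Mmp9 and G0s2, a lipase inhibitor that hepatocytes also make (log2 fold change -4.86 ± 0.69, adjusted p = 3.65e-05), and Ly6g, the defining antigen of neutrophils, was at 0, 0.402 and 2.62 CPM against 0 and 0.130 CPM, not called with all libraries and called higher without F4/80+ replicate 1 (log2 fold change 4.20, adjusted p = 0.0418).

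**Figure D4:**
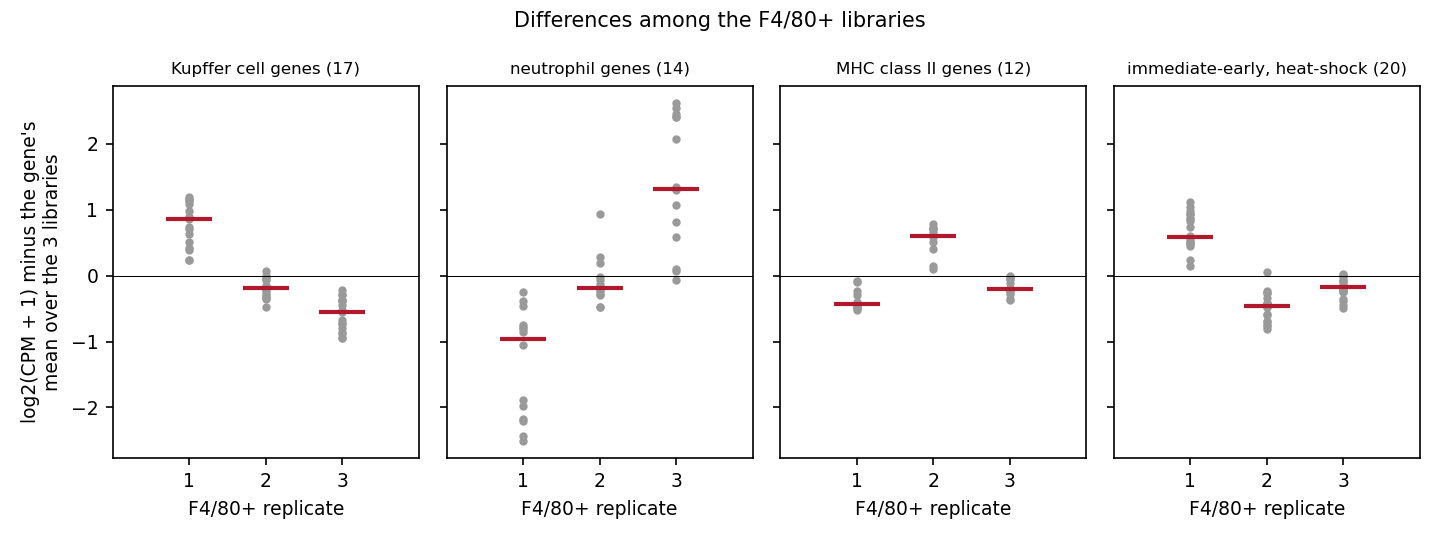
Deviation of each gene from its mean over the 3 F4/80+ libraries (vertical axis, log2(CPM + 1)) by replicate (horizontal axis) for 4 gene lists, with a gray point for each gene and a red bar at the median of the list. Kupffer and immediate-early genes were highest in replicate 1 (medians 0.85 and 0.59), MHC class II genes in replicate 2 (0.60) and neutrophil genes in replicate 3 (1.32).

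The other groups split between the remaining replicates. Relative to the mean of the 3 libraries, the Kupffer list had median deviations of 0.85, -0.19 and -0.55 on the log2(CPM + 1) scale in replicates 1, 2 and 3, and its summed level was 4684, 2332 and 1732 CPM, against 1627 and 821 CPM in Mt2. The immediate-early and heat-shock list had 0.59, -0.45 and -0.18. The MHC class II list was highest in replicate 2 for all 12 of its genes, with medians of -0.43, 0.60 and -0.20. The same library was thus the highest for resident macrophage markers and for immediate-early genes, and another for antigen presentation. Replicates have no order and no groups were formed from them.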

How the data were processed

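Reads of 5 RNA-seq libraries were compared, 3 of F4/80+ cells and 2 of Mt2 tissue, with groups and replicate numbers taken from the sample labels. The authors deposited raw counts of reads per gene, without normalization and without pooling of replicates, in a table of tissue libraries and a table of sorted cells. The submitters' processing notes name CASAVA, HISAT2 2.0.5, featureCounts 1.5.0-p3 and the GRCm38 build. The annotation release and the strand setting are not given in the sources used here, so overlapping and antisense genes are uncertain. The tables list the same 54532 genes. Columns were matched to samples by the codes in their names, and 0 columns of per-sample values were left unmapped.

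Genes of chromosomes X and Y were left out and 50348 kept. Counts were fitted in R 4.3.3 with edgeR 4.0.16, in a joint model of 9 groups and 19 samples of the series, in which the tissue libraries Ht_1 and Ht_3 were summed to 1 sample and the other groups served to estimate the spread. Scaling was by TMM, low genes were removed by filterByExpr, and p-values of edgeR's quasi-likelihood F test were adjusted by the Benjamini-Hochberg procedure, with calls where the adjusted p did not exceed 0.05 and the log2 fold change reached 1 in size. Standard errors were derived from the F statistic. CPM is scaled by TMM, and FPKM is TMM-scaled CPM per kilobase of the deposited gene length. A fold against a group without counts was taken against 3 counts in each library, which accounts for counting error alone, as no molecular identifiers were used. The fit was also run on simulated counts with known changes. Far fewer genes were changed there than were called here, so that run does not test the fit under a shift of this extent.

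The gene lists, written by hand, and the members described were chosen with earlier results of these data known, so their direction is not independent evidence. Named genes were the antigens of the beads, the 12 protein-coding genes at each end of the log2 fold changes (called, groups not overlapping, at least 20 CPM in the higher group), the 15 highest in FPKM in F4/80+ cells, and in each list the extreme, the most abundant and the opposing members. Further members of the lists were named after their values were seen. Some members of the lists are counted but not reported here by name. Promoter letters came from the RefSeq table of GRCm38.p6. Alternatives were DESeq2 1.42.0, other scalings, filters and thresholds, only the 5 libraries, Ht as 3 libraries, Mt1 or Ht tissue in place of Mt2, the replicate number as a block, X and Y genes kept, and leaving out each library. Figures were drawn in matplotlib 3.10.9.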

Additional observations from a re-analysis of the deposited data

How the results depend on the processing

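Of 3058 genes higher and 4489 lower, the counts stayed within 1.5 times under all alternatives but 2. With at least 10 counts in all 5 libraries, which leaves 12033 genes, 2428 were lower, and when the fold itself was tested against 2 (glmTreat), 1957 were higher. Leaving out each library in turn gave 2577 to 2965 higher and 3977 to 4260 lower genes, and DESeq2 gave 2991 and 4527. No called gene was called in the opposite direction, except 17 genes with Ht tissue in place of Mt2. Of the genes named, 6 that were called in either comparison changed sign when other tissue stood in for Mt2. With Ht the log2 fold changes were 1.75 for Arg1, 1.52 for C6, 2.28 for Clec4g, 0.98 for Fabp5 and 0.26 for Rxra, and with Mt1 that of Mmp12 was -0.073. The cause was not tested. Of 194 named genes, leaving out Mt2 replicate 1 or 2 moved 54 and 50 by over 1.5-fold, against 16, 5 and 8 for F4/80+ replicates 1, 2 and 3, and none of those called changed sign. The call changed for 3 of the named genes with DESeq2, 1 with median-ratio size factors, 5 with total-count scaling, 6 with no filter, 6 with only the 5 libraries in the fit, 16 when the fold itself was tested, 10 with Mt1 tissue and 36 with Ht tissue. Of the Kupffer cell genes, 12 were higher under the block and 15 with Ht tissue, against 7.

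The replicate numbers of cells and tissue are not said to mark shared animals. Same-numbered libraries had correlations of 0.11 and 0.02 between their deviations from the group means across 17890 genes. F4/80+ replicate 3 and Mt2 replicate 2 had 0.10. With 2 Mt2 libraries, the deviations of one mirror those of the other, so these values cannot decide whether libraries are paired. The numbers were not taken to pair them, and whether animals were shared is not known. A fit that took this number as a block gave 3067 higher and 4276 lower genes, and changed the call of 5 named genes, with Clec4f and Timd4 called higher and Arg1, Bub1 and Clec4g no longer called. Depth limits the lowest genes, since 1130 lower genes had at most 3 counts in each F4/80+ library and 405 higher genes in each Mt2 library, and only 2 tissue libraries carry the spread of Mt2.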

Other observations

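Outside the lists, the largest fitted log2 fold change of all genes with at least 20 CPM on average in the F4/80+ cells belonged to Gm42031, a long intergenic noncoding RNA gene on chromosome 8, at 122, 75.9 and 25.9 CPM in the F4/80+ libraries and 0 and 0.0868 CPM in Mt2 (log2 fold change 10.31 ± 1.00, adjusted p = 3.16e-06). Its tissue values correspond to 0 and 2 counts, so the size of the fold is not fixed by these data. Lcn2, a member of the iron list, encodes the siderophore-binding protein lipocalin-2 of neutrophils and stressed epithelium. It was one of the 25 genes that ranged over more than 4-fold among the F4/80+ libraries. It stood at 2.78, 9.04 and 55.3 CPM there and at 73.6 and 94.6 CPM in Mt2, without overlap, and was not called (log2 fold change -1.91 ± 0.96, adjusted p = 0.105). Thbs1, a member of the vascular list, encodes the matrix glycoprotein thrombospondin-1. This gene stood at 1394, 586 and 838 CPM against 227 and 445 CPM, also without overlap, and was not called (log2 fold change 1.48 ± 0.63, adjusted p = 0.0608).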
